A study of Mus musculus with 10 samples.

Results

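The nuclear genes for the subunits of the mitochondrial respiratory chain and of ATP synthase were followed in mouse motor neurons of 3 origins. Members were chosen by symbol from the array's annotation: genes beginning Nduf followed by a, b, c, s or v and a digit, the Sdh genes a to d, and genes beginning Uqcr, Cox4 to Cox8, or Atp5. This took in 79 of the 16593 genes on the array, measured by 98 probes. The 72 members detected on at least 2 arrays, by the authors' detection p-value under 0.01, were tested. By complex, 27 of 27 accessory and 5 of 6 core members of complex I were tested, with 3 of 3 of complex II, 7 of 8 of complex III, 15 of 19 of complex IV and 15 of 16 of complex V, the ATP synthase. Ndufa4, first assigned to complex I, was counted in complex IV. One symbol taken in by the rule, Ndufs5-ps, names a pseudogene, and Cox7a2l is known as an assembly factor of supercomplexes rather than a subunit. Sdha was not analysed here.

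All cells carried an Hb9::GFP transgene, which expresses green fluorescent protein from the promoter of a motor neuron gene, and were sorted on this signal into a GFP-high and a GFP-medium fraction. Induced cells were fibroblasts of C57BL/6 embryos reprogrammed with 10 transcription factors, on 2 arrays (1 of each gate). ES-derived cells were differentiated from the embryonic stem cell line V6.5, a single line, on 4 arrays (2 of each gate), and embryonic cells were taken from the spinal cord of C57BL/6 embryos at E13.5, also on 4 arrays. Nothing in the labels states that arrays of a group came from different animals or cultures. The p-values thus reflect only how these samples spread, and that spread may be technical.

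Complexes I and II pass electrons from NADH and succinate to ubiquinone, complex III passes them on to cytochrome c, and complex IV passes them to oxygen. Complexes I, III and IV move protons across the inner mitochondrial membrane, and ATP synthase uses the proton gradient to make ATP. Neurons depend heavily on this route for ATP, and several subunits of complex IV exist as tissue isoforms, with forms known from muscle, lung or testis beside the widely expressed ones.

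The 10 arrays differed widely in brightness. Mean deposited intensity was 166 and 140 on the induced arrays, between 3.16 and 577 on the ES-derived arrays and between 51.3 and 474 on the embryonic arrays. Arrays detected between 50 and 70 of the 79 members. The 50 belonged to ES-derived GFP-high 1, the dimmest array, where the lowest detected log2 value was 8.68 and low transcripts could not be measured. Results are therefore also given without the 3 arrays whose mean intensity was under 100 (ES-derived GFP-high 1, ES-derived GFP-medium 1 and embryonic GFP-medium 1). Of 8 motor neuron markers, 4 and 3 were detected on the induced arrays, 1 to 5 on the ES-derived arrays and 4 or 5 on the embryonic arrays. Mnx1, the gene of Hb9, was detected on at least 1 induced array but on none of the ES-derived or embryonic arrays. Isl2, Lhx3, Slc18a3 and Slc5a7 were detected on neither induced array, and Slc18a3 on no embryonic array. The markers behind these counts thus differed between origins. Markers of other tissues moved with origin. Of 11 skeletal muscle markers, 1 and 0 were detected on the induced arrays, 0 to 4 on the ES-derived arrays and 6 to 9 on the embryonic arrays, with a summed normalized intensity of 261 and 243 on the induced arrays, 229 to 827 on the ES-derived arrays and 5387 to 9362 on the embryonic arrays. Of 9 fibroblast and mesenchyme markers, 3 and 0 were detected on the induced arrays, 0 to 7 on the ES-derived arrays and 7 or 8 on the embryonic arrays. Blood markers had sums of 102 and 128 on the induced arrays, 99.5 to 137 on the ES-derived arrays and 925 to 2057 on the embryonic arrays, with 3 to 5 of 5 detected on embryonic arrays and 0 elsewhere. Macrophage markers had sums of 430 and 346 on the induced arrays, with 3 and 2 of 4 detected, 89.9 to 571 on the ES-derived arrays and 132 to 186 on the embryonic arrays. The part of other cells or of array brightness in the differences below was not tested. In such samples a higher share of cells with a transcript and more of it per cell cannot be told apart.

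The comparison of induced with embryonic cells asked how far reprogrammed motor neurons match those of the embryo. Most respiratory chain genes stood higher in induced cells. The difference was above 0 for 64 of the 72 tested members and above 1 on the log2 scale for 41 of them, while 0 members lay below -1. The median over members was 1.13 log2, against -0.02 over all 9679 features tested, of which 10.5% lay above 1. Both induced arrays were above all 4 embryonic arrays for 52 members (72.2%) and below them for 0, where 20.3% of all features did not overlap upward and 20% downward. By limma with Benjamini-Hochberg adjustment over all features, 1.27% of features were called at an adjusted p under 0.05, and among the members 1 was called, Atp5l. At an unadjusted p under 0.05 there were 28 members (38.9%), all higher. Of all features 12.6% were so in either direction and 5.97% higher. The same counts without Ndufs5-ps and Cox7a2l were 62 of 70 above 0, with a median of 1.12. The plot of differences by size shows the members shifted as a group to the right of all features.

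**Figure D1:**
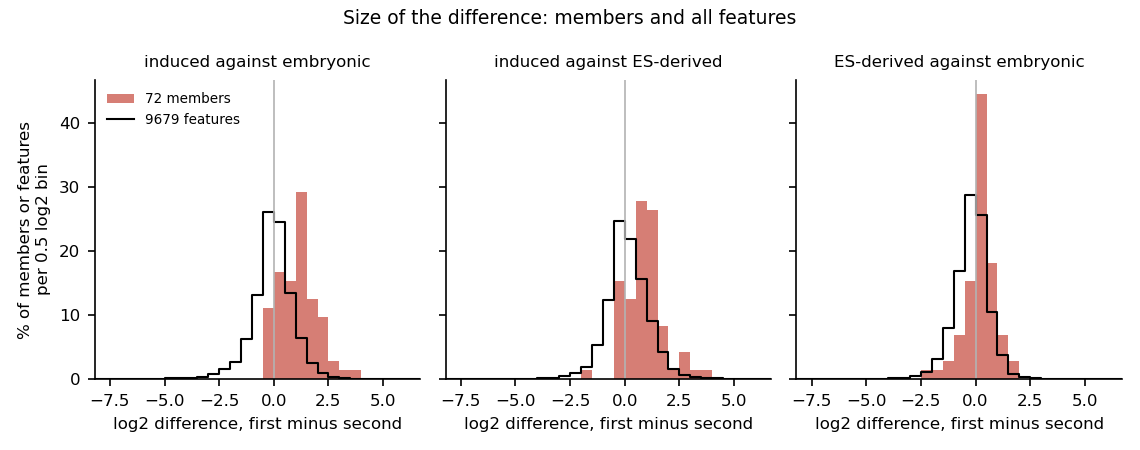
Share of the 72 tested members (bars) and of all 9679 features (line) by log2 difference in bins of 0.5, for induced against embryonic, induced against ES-derived and ES-derived against embryonic cells, each as the first minus the second origin. The members' medians are 1.13, 0.85 and 0.17, against -0.02, 0.08 and -0.13 for all features.

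The shift was present on each induced array. Relative to each member's mean over the embryonic arrays, the median member stood at 1.24 on the induced GFP-high array and 1.03 on the induced GFP-medium array, and the median of all features stood at -0.03 and -0.04. On the 4 ES-derived arrays the median member stood at 0.26, 0.25, 0.04 and 0.30, and on the 4 embryonic arrays at -0.16, 0.10, 0.45 and -0.43. Here and below, the 4 arrays of an origin are given in the order GFP-high 1, GFP-high 2, GFP-medium 1 and GFP-medium 2, and the induced arrays as GFP-high and GFP-medium. The embryonic array with the highest median, GFP-medium 1, was also the dimmest of its origin, at a mean intensity of 51.3. On the induced arrays 54 and 55 members exceeded all 4 embryonic values, against 23 to 29 on the ES-derived arrays. The share of all features that did so on a single array was not counted, so these counts have no background beside them.

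**Figure D2:**
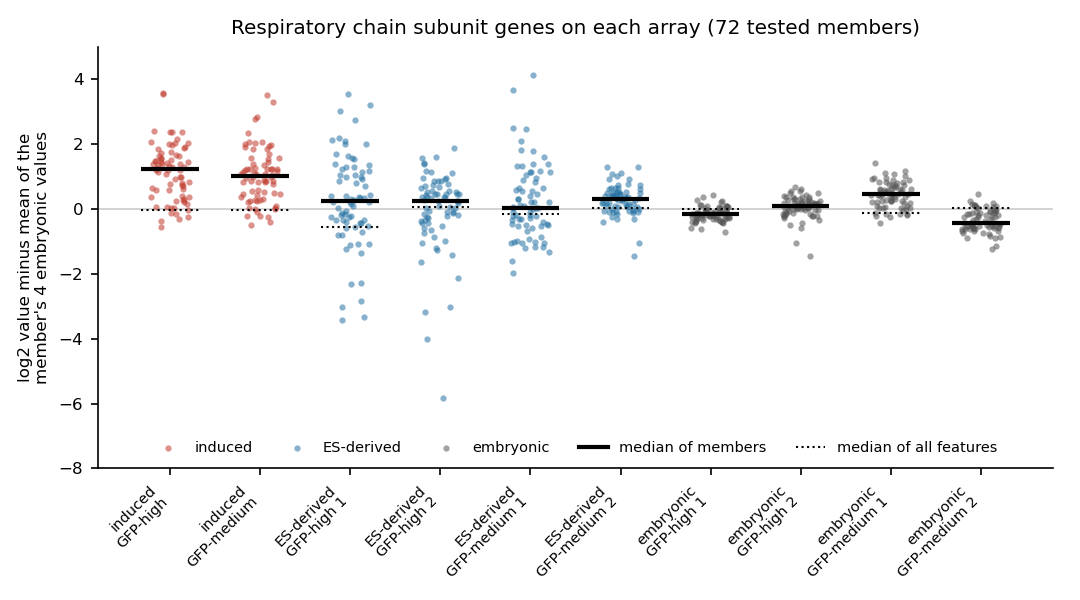
Each point is 1 of the 72 tested members on 1 array, as its log2 value minus its mean over the 4 embryonic arrays; thick lines give the median of members and dotted lines the median of all 9679 features. The induced medians of 1.24 and 1.03 lie above those of the other 8 arrays, which range from -0.43 to 0.45, and single members spread most on the ES-derived arrays.

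The size of the shift differed little by level, except among the brightest members. Members were divided by their mean log2 value over all arrays, with limits set once their values were known. The median difference was 1.18 for the 18 members under 8, 1.27 for the 19 between 8 and 10, 1.22 for the 24 between 10 and 12 and 0.40 for the 11 at 12 and over. The medians of all features in the same ranges were -0.03, 0.03, -0.01 and 0.04. Features of like brightness had medians within 0.04 of 0.

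Complex V held the called member and the widest range. Atp5l, which encodes the small membrane subunit g of ATP synthase, had log2 values of 8.84 and 8.55 on the induced arrays, 4.47, 6.83, 6.60 and 6.20 on the ES-derived arrays and 5.30, 5.40, 5.25 and 5.08 on the embryonic arrays. The induced values stood apart from all others, and Atp5l was detected on 3 of 4 ES-derived and 3 of 4 embryonic arrays. Atp5l was 3.44 ± 0.62 log2 higher (SE; 10.8-fold) in induced than in embryonic cells (limma, adjusted p = 0.0305), with group means of 8.70 ± 0.20 (SD, n = 2) and 5.26 ± 0.13 (SD, n = 4). Over all alternatives the adjusted p lay between 7.92e-07 with array weights and 0.622 with median scaling, and the difference between 3.07 and 4.22. Leaving out 1 array ended the call for 7 of the 10 arrays. Its adjusted p was 0.495 without induced GFP-high, 0.316 without induced GFP-medium, 0.0590 without ES-derived GFP-medium 2, 0.0821 without embryonic GFP-high 1, 0.0851 without embryonic GFP-high 2, 0.0806 without embryonic GFP-medium 1 and 0.109 without embryonic GFP-medium 2. Without the 3 dimmest arrays it was 5.52e-04, at a difference of 4.22 ± 0.32.

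Other small subunits of ATP synthase had large differences that did not pass. Atp5e, the epsilon subunit, had 10.44 and 10.42 on the induced arrays, 4.60, 7.28, 9.41 and 6.97 on the ES-derived arrays and 6.21, 7.58, 7.34 and 6.48 on the embryonic arrays, a difference of 3.53 ± 0.99 from embryonic cells (adjusted p = 0.143). Atp5k, subunit e, stood at 2.03 ± 0.53 (adjusted p = 0.122). It was detected on just 2 of the 4 embryonic arrays, where its values lay between 4.65 and 4.99. The catalytic head behaved otherwise. The genes of the alpha and beta subunits, Atp5a1 and Atp5b, stood at -0.02 ± 0.41 and -0.16 ± 0.38. Atp5b had 13.59 and 13.75 on the induced arrays, 13.11, 13.40, 13.87 and 13.44 on the ES-derived arrays and 14.08, 13.71, 13.59 and 13.92 on the embryonic arrays, so that the 3 origins overlapped. Among the 3 genes that encode the same c subunit of the rotor ring, Atp5g1 stood at 1.30 ± 0.63, Atp5g2 at 0.74 ± 0.93 and Atp5g3 at 0.03 ± 0.51. Over the 15 tested members of complex V, 13 differences were above 0, with a median of 1.11. Atp5o, which encodes the oligomycin sensitivity subunit of the stalk, was detected on 0 arrays.

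**Figure D3:**
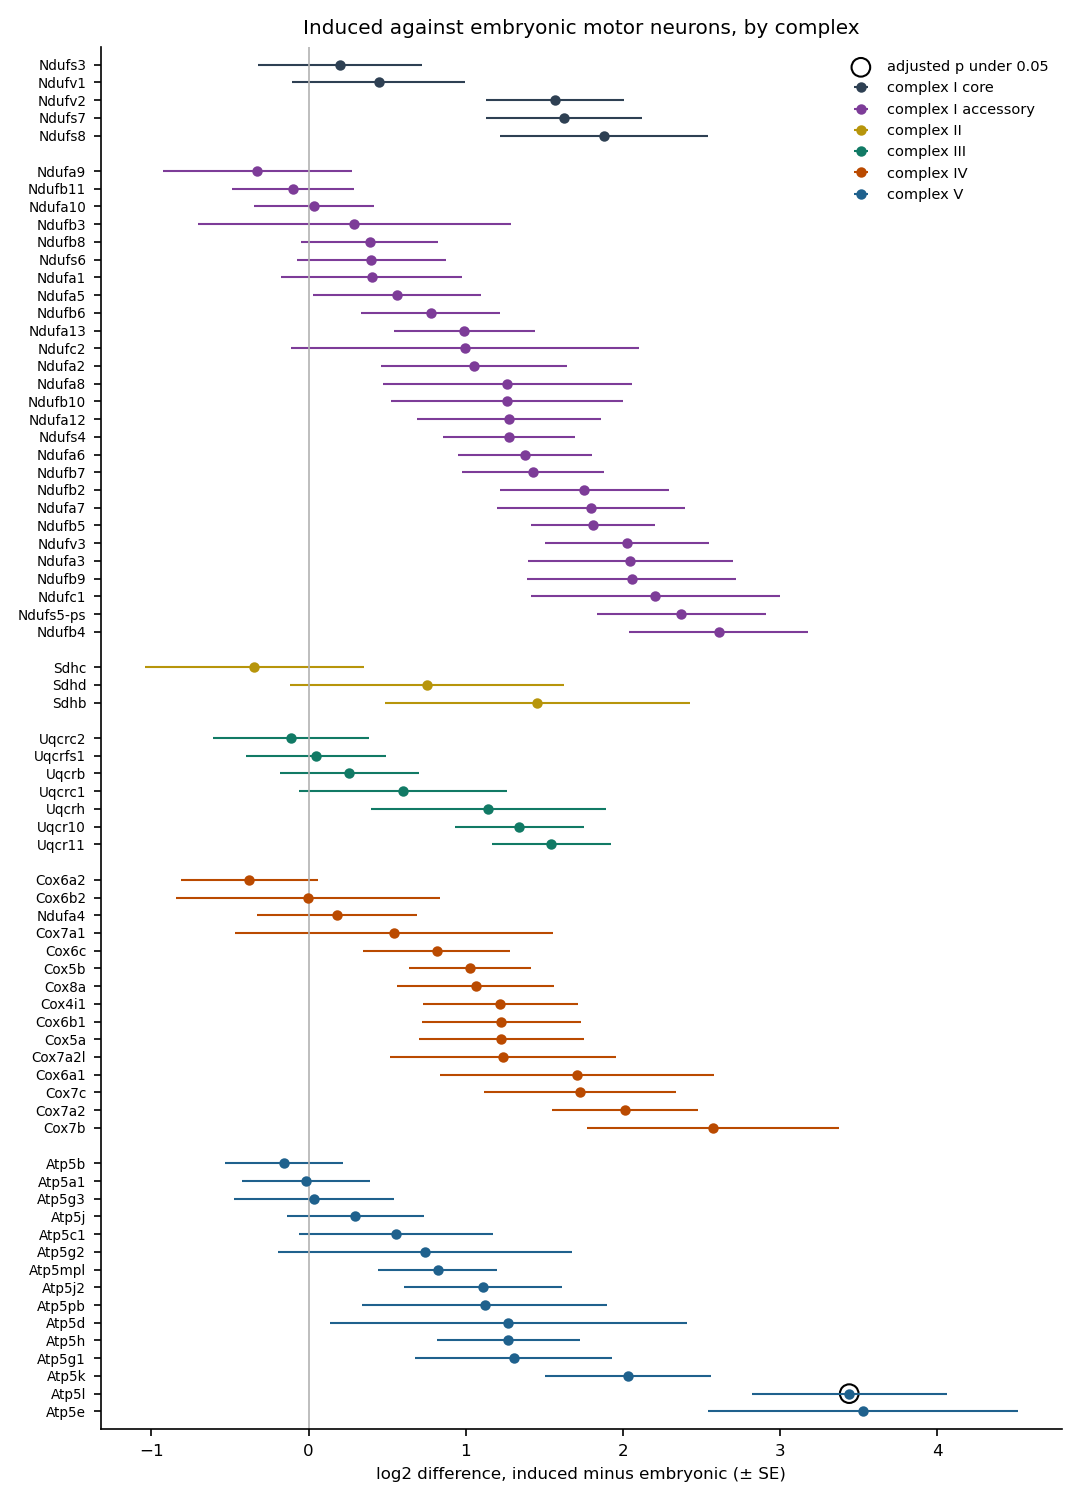
Log2 difference, induced minus embryonic, for each of the 72 tested members with its standard error, grouped by complex; the ring marks Atp5l, the 1 member with an adjusted p under 0.05. Differences run from -0.38 (Cox6a2) to 3.53 (Atp5e), and 64 of 72 lie above 0.

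In complex I, 5 of 5 tested core subunits and 25 of 27 accessory subunits had a difference above 0, with medians of 1.57 and 1.26, and 0 were called. Of the core genes, which encode the parts that carry electrons, Ndufs8 stood at 1.88 ± 0.66, Ndufs7 at 1.63 ± 0.49 and Ndufv2 at 1.57 ± 0.44. Ndufv1, whose product binds NADH, stood at 0.45 ± 0.55 and Ndufs3 at 0.20 ± 0.52. The core gene Ndufs1 was detected on 0 arrays. Of the accessory subunits, Ndufb4 had 9.13 and 9.61 on the induced arrays, 8.32, 7.30, 8.86 and 6.94 on the ES-derived arrays and 6.37, 6.67, 7.34 and 6.66 on the embryonic arrays. Both induced values were above all others, and the difference from embryonic cells was 2.61 ± 0.57 (adjusted p = 0.0675). Ndufs5-ps, the pseudogene symbol, stood at 2.37 ± 0.54 (adjusted p = 0.0746). Whether its probe reads RNA of the parent gene Ndufs5 was not tested. At the other end Ndufa9 stood at -0.33 ± 0.60 and Ndufa10 at 0.04 ± 0.38. Ndufb11 was detected on neither induced array and on just 1 embryonic array, so its difference was not measured.

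Complexes II and III had the smaller medians, 0.75 and 0.60. Of the 3 genes of complex II, the iron-sulfur subunit Sdhb stood at 1.45 ± 0.97, and the membrane anchors Sdhd and Sdhc at 0.75 ± 0.87 and -0.34 ± 0.70. In complex III the small subunit gene Uqcr11 had 12.74 and 12.55 on the induced arrays, 11.32, 11.55, 11.42 and 11.74 on the ES-derived arrays and 10.98, 11.13, 11.52 and 10.76 on the embryonic arrays, a difference of 1.54 ± 0.38 from embryonic cells (adjusted p = 0.0994). Both induced values exceeded the other 8. The small subunits Uqcr10 and Uqcrb stood at 1.34 ± 0.41 and 0.26 ± 0.44, the hinge protein gene Uqcrh at 1.14 ± 0.75, and the core proteins Uqcrc1 and Uqcrc2 stood at 0.60 ± 0.66 and -0.11 ± 0.50. Uqcrfs1, the Rieske iron-sulfur protein, was detected on neither induced array and on just 1 embryonic array, which leaves its difference unmeasured, and Uqcrq was detected on 0 of 10 arrays.

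In complex IV, cytochrome c oxidase, 13 of 15 tested members had a difference above 0, with a median of 1.22 and 0 calls. Cox7a2, the widely expressed form of subunit VIIa, had 9.60 and 9.57 on the induced arrays, 7.62, 8.29, 8.40 and 7.48 on the ES-derived arrays and 7.41, 7.70, 8.17 and 7.02 on the embryonic arrays, a difference of 2.01 ± 0.47 (adjusted p = 0.0833). The 2 induced values lay more than 1 log2 above the other 8. Cox7b stood at 2.57 ± 0.80, Cox6a1 at 1.71 ± 0.87, Cox6b1 at 1.23 ± 0.51, Cox5a at 1.23 ± 0.53, Cox4i1 at 1.22 ± 0.49 and Cox8a at 1.06 ± 0.50. Cox6a2 and Cox7a1, the heart and muscle forms, stood at -0.38 ± 0.43 and 0.54 ± 1.01, and Cox6b2, the testis form, at 0.00 ± 0.84. Cox6b2 was not detected on induced GFP-high or embryonic GFP-medium 1, and Cox7a1 not on embryonic GFP-high 2. Without the 3 dimmest arrays Cox7a1 stood at 1.05 ± 0.53. The difference between tissue forms and widely expressed forms was not tested. Ndufa4 stood at 0.18 ± 0.51. The lung form Cox4i2, the heart and muscle form Cox8b and the testis form Cox7b2 were detected on 0 arrays, and the testis form Cox8c on 1 ES-derived array.

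Without the 3 dimmest arrays 30 members were called higher and 0 lower in induced than in embryonic cells, where 7.36% of all features were called higher and 9.33% lower. They spanned complexes I, III, IV and V, and among them were Atp5e at 4.16 ± 0.51 (adjusted p = 0.00306), Ndufb4 at 3.20 ± 0.36 (adjusted p = 0.00215), Cox7b at 3.23 ± 0.50 (adjusted p = 0.00682) and Cox7a2 at 2.57 ± 0.35 (adjusted p = 0.00475). None of the 3 members of complex II was among them. Without ES-derived GFP-high 1 alone, an array in neither group, 15 members were called, where 6.69% of all features were, and the member median was 1.20. With each other array left out in turn the count was 0 or 1, as Ndufs5-ps without embryonic GFP-medium 1 and Ndufb4 without ES-derived GFP-medium 2, and otherwise Atp5l or none.

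**Figure D4:**
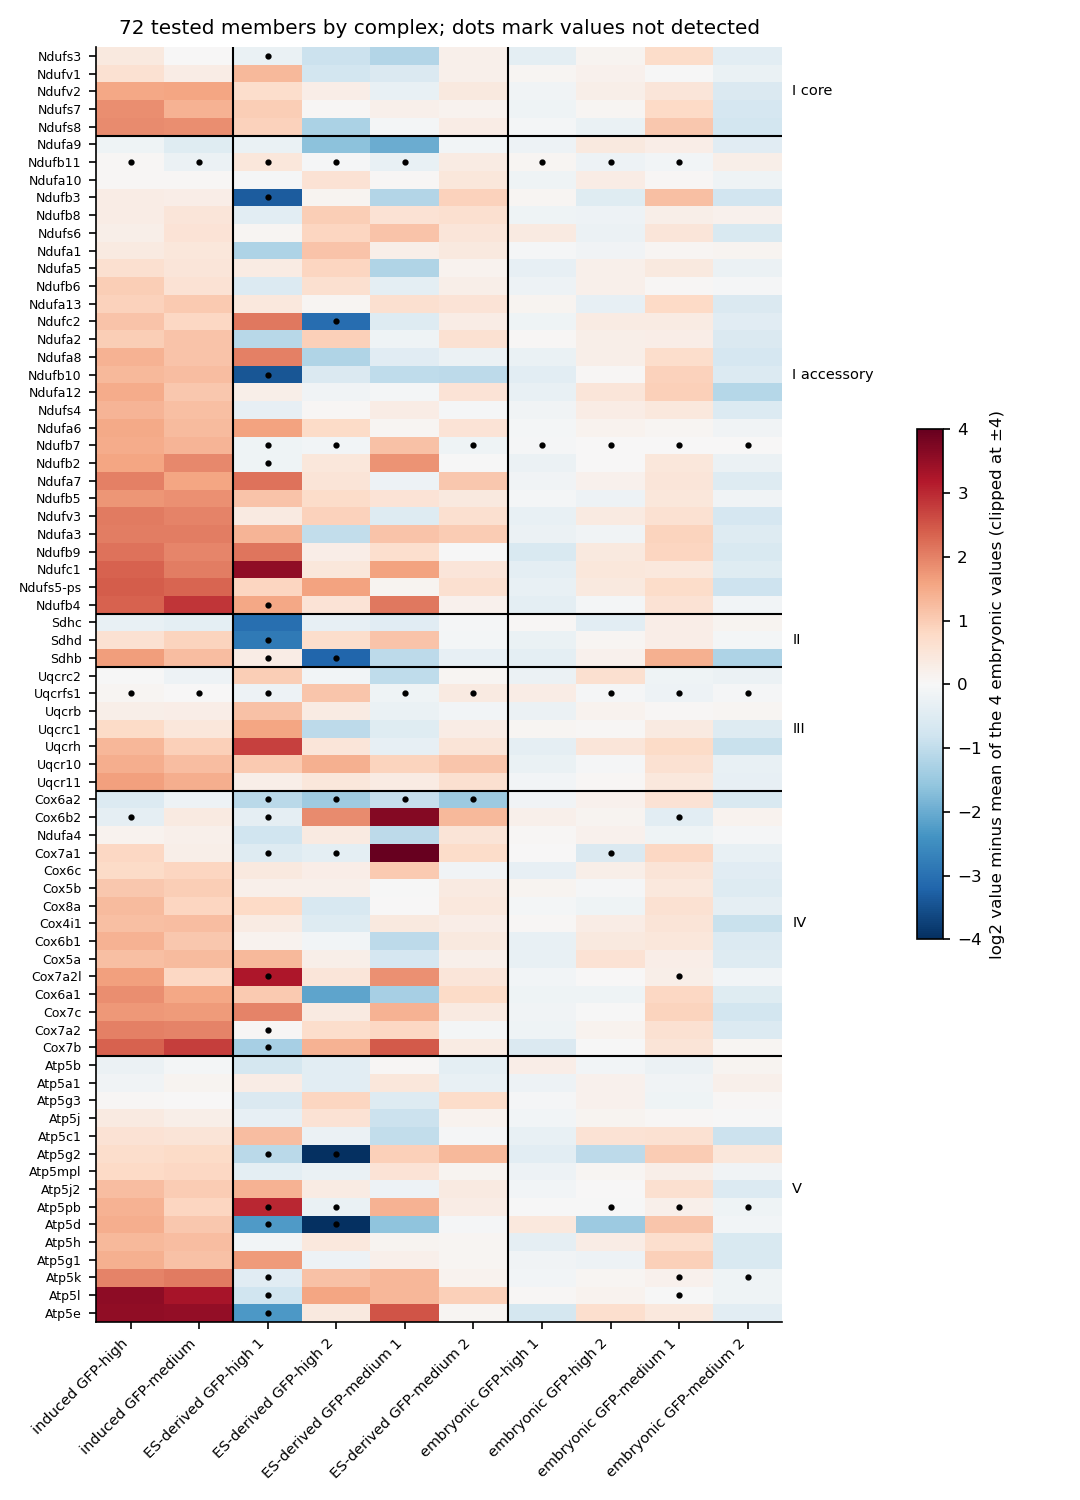
The 72 tested members (rows, grouped by complex) on the 10 arrays (columns: induced, ES-derived, embryonic), coloured by log2 value minus the mean of the 4 embryonic arrays and clipped at ±4; black dots mark values not detected. The 2 induced columns are red in most rows of every complex, and the ES-derived columns differ among themselves.

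Set against ES-derived cells, induced cells also stood higher for most members. The comparison asked whether neurons made from fibroblasts and from stem cells differ, and it shares the induced arrays with the one above. Differences were above 0 for 60 of 72 members, with a median of 0.85 against 0.08 over all features, and above 1 for 31. The induced arrays did not overlap upward with the ES-derived ones for 29 members (40.3%), where 13.9% of all features did so, and downward for 0, where 7.37% did so. By limma 0 members were called, where 0.806% of all features were, and 22 members (30.6%) had an unadjusted p under 0.05, all higher, against 11.9% of all features in either direction and 8.27% higher. Complex I core subunits had the highest median, 1.28, and complex III the lowest, 0.22.

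The largest differences from ES-derived cells were in complex V. Atp5d, the delta subunit, had 11.96 and 11.57 on the induced arrays, 8.22, 4.66, 8.90 and 10.44 on the ES-derived arrays and 10.91, 9.05, 11.61 and 10.39 on the embryonic arrays. The ES-derived values spread over more than 5 log2, and the difference of induced from ES-derived cells was 3.71 ± 1.14 (adjusted p = 0.218). Atp5e stood at 3.37 ± 0.99 (adjusted p = 0.208), Ndufb10 at 2.78 ± 0.74 (adjusted p = 0.156) and Atp5l at 2.67 ± 0.62 (adjusted p = 0.117). Atp5d was not detected on 2 of the ES-derived arrays. Atp5e, Atp5l and Ndufb10 were each not detected on 1 of them, ES-derived GFP-high 1. Without the 3 dimmest arrays 13 members were called higher and 1 lower, where 5.02% of all features were called higher and 6.18% lower. The higher ones included Atp5e, Atp5l, Ndufb4, Ndufs8 and Cox7a2. Without ES-derived GFP-high 1 alone 3 were called, Atp5l, Ndufb10 and Ndufs8, a share of members close to the 4.17% of all features called in that fit.

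ES-derived and embryonic cells, compared to ask how stem cell-derived neurons match the embryo's, differed less and in both directions. Differences were above 0 for 52 of 72 members, with a median of 0.17 against -0.13 over all features, but with median scaling in place of quantile normalization 12 of 72 lay above 0 and the median turned to -0.81, against -0.58 over all features. By limma 0 members were called, where 0.899% of all features were, and 8 had an unadjusted p under 0.05, a share of 11.1% that is the same as that of all features. ES-derived arrays did not overlap with embryonic arrays for 3 members upward, where 2.24% of all features did so, and for 2 downward, where 5.06% did so. Without the 3 dimmest arrays 1 member was called higher, Atp5l at 1.67 ± 0.32 (adjusted p = 0.0347), where 1.45% of all features were called higher and 2.68% lower. Leaving out ES-derived GFP-high 1 alone also gave that call, where 2.84% of all features were called.

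Upward, the members without overlap were Uqcr10, Cox7a2l and Ndufc1. Uqcr10, a small subunit of complex III, had 12.20, 12.59, 12.05 and 12.28 on the ES-derived arrays and 10.90, 11.10, 11.77 and 10.84 on the embryonic arrays, a difference of 1.13 ± 0.33 (adjusted p = 0.202). All 4 ES-derived values lay above all 4 embryonic values, and the 2 induced values, 12.60 and 12.39, lay with the ES-derived ones. Cox7a2l stood at 1.50 ± 0.59 and Ndufc1 at 1.53 ± 0.65. Both were highest on ES-derived GFP-high 1, at 8.54 and 10.77, and Cox7a2l was not detected there. Without the 3 dimmest arrays these differences were 0.77 ± 0.36 and 0.79 ± 0.41. For Ndufc1 the lowest ES-derived value was 7.69 and the highest embryonic value 7.67. Downward, Ndufb10 stood at -1.52 ± 0.60 with a mean of 7.32 ± 1.28 on the ES-derived arrays against 8.84 ± 0.66 on the embryonic arrays (SD, n = 4 each). Its difference was -0.98 without ES-derived GFP-high 1, where it was not detected, and -0.53 without the 3 dimmest arrays. In complex II all 3 members had a difference below 0, with a median of -0.97, and the direction did not hold for each of them without the 3 dimmest arrays. Sdhb was at -1.07, Sdhc at -0.97 and Sdhd at -0.27, and without the 3 dimmest arrays they were at -1.23, -0.13 and 0.47. Sdhd had 4.94, 8.47, 8.91 and 7.70 on the ES-derived arrays and 7.52, 7.87, 8.04 and 7.70 on the embryonic arrays. The 4.94, on ES-derived GFP-high 1, was not detected. Sdhc was lowest on the same array, at 8.81, and was detected there. Sdhb was lowest on ES-derived GFP-high 2, at 4.34, and was not detected on either ES-derived GFP-high array. GFP-high 2 stays in the fit without the 3 dimmest arrays, so the Sdhb difference of -1.23 rests in part on an undetected value.

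Tissue isoforms of cytochrome c oxidase differed in where they were detected. Cox6a2, the heart and muscle form of subunit VIa, was detected on both induced arrays, at 5.31 and 5.66, on none of the 4 ES-derived arrays, and on all 4 embryonic arrays, at 5.71, 6.02, 6.44 and 5.26. In ES-derived cells its level thus had only an upper bound. With the lowest detected value of an array used where it was higher, the ES-derived mean lay 1.20-fold above the embryonic mean. The bound does not show Cox6a2 lower in ES-derived cells. Its limma difference of -1.21 ± 0.35 (adjusted p = 0.197) rests on undetected ES-derived values. Skeletal muscle markers were detected at 1 and 0 of 11 on the induced arrays, 0 to 4 on the ES-derived arrays and 6 to 9 on the embryonic arrays, and their part in the Cox6a2 signal was not tested. Cox7a1, the heart and muscle form of subunit VIIa, had 4.61, 4.76, 9.29 and 5.87 on the ES-derived arrays, detected on the last 2. Cox6b2, the testis form of subunit VIb, had 4.69, 6.93, 8.71 and 6.33 there. Both were highest on ES-derived GFP-medium 1, the array on which pluripotency markers were also highest, with 6 of 8 detected and a summed normalized intensity of 17725 against 762 to 3465 on the other ES-derived arrays. On the induced and embryonic arrays 1 to 4 of these 8 markers were detected, at sums of 202 to 236. Whether pluripotent cells gave the Cox7a1 and Cox6b2 signal was not tested. Cox6b2 was the 1 member called lower in induced than in ES-derived cells without the 3 dimmest arrays, at -2.03 ± 0.46 (adjusted p = 0.0347), and ES-derived GFP-medium 1 was among those left out. Cox6b2 was not detected on induced GFP-high, at 4.67, so this difference rests in part on an undetected value.

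**Figure D5:**
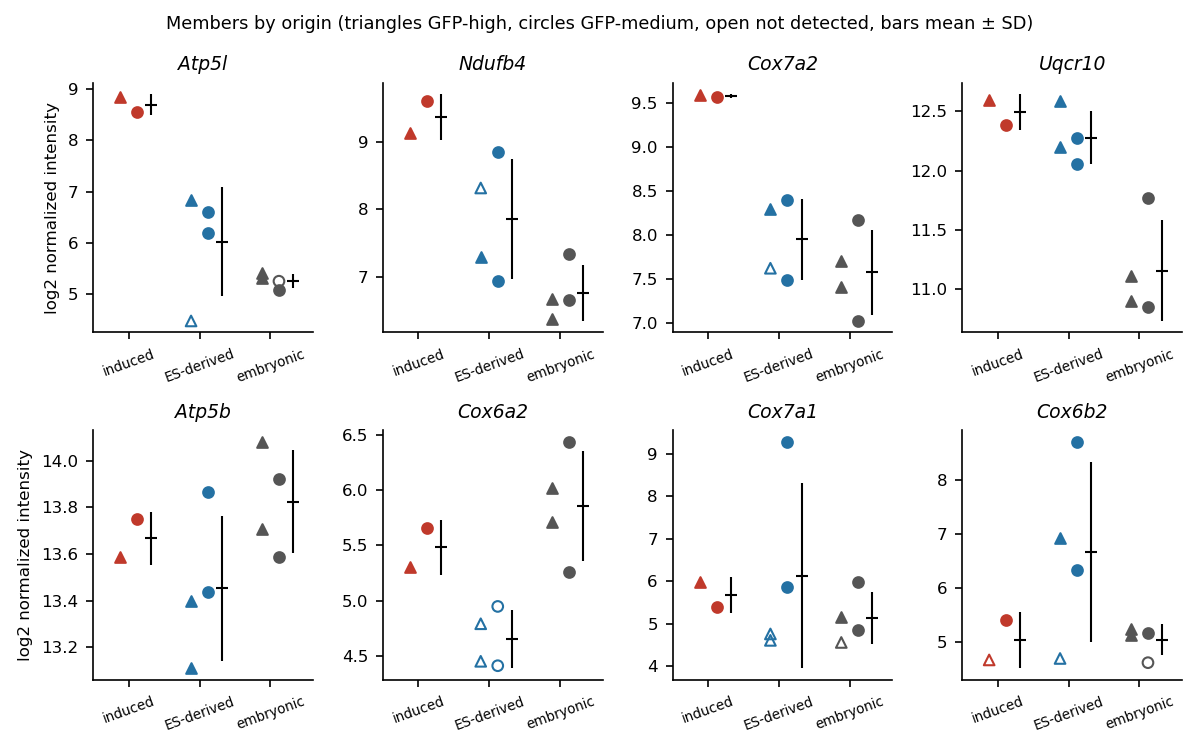
Log2 normalized intensity of 8 members on each array by origin, with triangles for GFP-high, circles for GFP-medium, open symbols for values not detected and bars for mean ± SD (n = 2, 4 and 4). Atp5l, Ndufb4 and Cox7a2 are highest on both induced arrays, Atp5b overlaps between origins, and Cox7a1 and Cox6b2 peak on 1 ES-derived array.

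The gates did not separate the members. Between GFP-high and GFP-medium cells 36 of 72 differences were above 0, with a median of 0.00 against -0.06 over all features. By limma 0 members were called, where 0% of all features were, and 1 member had an unadjusted p under 0.05, against 201 of all features. That member was Atp5g2, a gene of the c subunit, at -2.07 ± 0.68 (adjusted p = 0.962), with 10.07 against 10.12 in induced cells, 8.28 and 5.35 against 10.31 and 10.66 in ES-derived cells and 8.93 and 8.30 against 10.37 and 9.81 in embryonic cells. GFP-high was lower in each origin, by 0.06 in the induced pair. Atp5g2 was not detected on either ES-derived GFP-high array, so the 8.28 and 5.35 there are not measured levels. The gate difference was not shown to depend on origin for any member. In the test of ES-derived against embryonic cells, 0% of all features were called, and 0 members, against 156 features, had an unadjusted p under 0.05.

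Where a gene had several probes, they mostly pointed the same way for the induced cells. Of 10 members with more than 1 kept probe, 9 had a single sign over their probes for induced against embryonic cells, and 5 did for ES-derived against embryonic cells. The exception was Ndufv3, with 2 probes at 2.02 and 2.09 and another, detected on 2 arrays, at -0.04. The 4 probes of Ndufs4 lay between 0.84 and 1.27, the 2 of Uqcr10 at 1.34 and 1.25 and the 2 of Ndufc1 at 2.20 and 2.03.

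Other nuclear genes for mitochondrial proteins were set beside the subunits for induced against embryonic cells. Mitochondrial ribosomal protein genes, whose products translate the subunits encoded in the organelle, had 59 of 70 differences above 0, with a median of 0.84 and 0 calls. Mrpl48 stood at 2.64 ± 0.83 and Mrps18a at 1.97 ± 0.75. Assembly factors had 18 of 26 above 0 and a median of 0.45, with the copper chaperone gene Cox17 at 2.04 ± 0.57 and Cox14 at 1.84 ± 0.90. The 15 citric acid cycle genes had 8 above 0 and a median of 0.15, with Idh3a at 1.15 ± 0.46 and Dlat at 1.04 ± 0.55. The 13 electron carriers and their feeders had 9 above 0 and a median of 0.11, with Etfa at -1.57 ± 0.97 and Coq3 at 0.87 ± 0.84. The 15 carrier, import and cristae genes had 7 above 0 and a median of -0.16, with the chaperone gene Hspd1 at -1.50 ± 0.46 and the fusion gene Mfn2 at -1.13 ± 0.62. No member of these lists was called, where 1.27% of all features were. Of all features 48.6% lay above 0, with a median of -0.02. The difference between lists was not tested.

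Regulators of nuclear genes for mitochondrial proteins were measured beside these lists. The 13 tested regulators had 8 differences above 0 between induced and embryonic cells, with a median of 0.20 and 0 calls. Of all features 48.6% lay above 0 and 1.27% were called. Ppargc1a, a coactivator, stood at 0.85 ± 0.47, Tfb2m, a mitochondrial transcription factor, at 0.92 ± 0.83, and Nrf1, nuclear respiratory factor 1, at -0.84 ± 0.46 (adjusted p = 0.543). Gabpa and Esrra, which encode an ETS factor and an estrogen-related receptor, stood at 0.20 ± 0.43 and 0.46 ± 0.85.

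The members lie on 19 different chromosomes, and their promoters were searched for 4 motifs of factors known to act at genes of this group. Windows from 250 bases before to 50 after the start, from RefSeq on GRCm38.p6, were found for 64 members (69 windows) and compared with 27025 genes in the same table. The palindrome CGCATGCG of nuclear respiratory factor 1 (NRF1) was present in windows of 8 members (12.5%), against 2.07% of all genes. The motif AAGATGGCG of YY1 was present in 7 members (10.9%) against 1.64%, CCGGAAGT of ETS factors such as GABPA in 5 (7.81%) against 4.31%, and TCAAGGTCA of the estrogen-related receptor ERRA in 2 (3.13%) against 0.466%, each on either strand. Any of them was present in 20 members (31.3%), against 8.03% of all genes. The median GC content of member windows was 57.3%, against 52.7% over all windows. Whether the motifs mark members with larger differences was not tested. The median induced minus embryonic difference was 1.13 for the 20 tested members with a motif and 1.24 for the 41 without one. A match describes the letters only, and no match says nothing of the factor.

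The windows below are of the called member, 2 others with large differences and 1 with a difference near 0, each on the minus strand of its chromosome and printed 5′ to 3′ along the gene, with the motif in capitals. Atp5l, the called member, holds the NRF1 letters at position -241 from the start (chr9:44920693-44920992). Uqcr11, at 1.54, holds NRF1 at -5 and ETS at -66 (chr10:80406772-80407071). Ndufc1, at 2.20, holds YY1 at 22, after the start (chr3:51408906-51409205). Atp5g3, at 0.03, holds the ERRA letters on the other strand at -52 (chr2:73911277-73911576), so that a motif stood in a member with a difference near 0 as well.
Atp5l: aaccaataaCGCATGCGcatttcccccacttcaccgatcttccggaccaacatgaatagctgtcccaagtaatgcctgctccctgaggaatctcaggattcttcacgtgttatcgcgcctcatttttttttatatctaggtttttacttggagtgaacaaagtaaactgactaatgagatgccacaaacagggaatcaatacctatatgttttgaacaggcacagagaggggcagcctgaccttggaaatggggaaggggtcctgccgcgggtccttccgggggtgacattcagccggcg
Uqcr11: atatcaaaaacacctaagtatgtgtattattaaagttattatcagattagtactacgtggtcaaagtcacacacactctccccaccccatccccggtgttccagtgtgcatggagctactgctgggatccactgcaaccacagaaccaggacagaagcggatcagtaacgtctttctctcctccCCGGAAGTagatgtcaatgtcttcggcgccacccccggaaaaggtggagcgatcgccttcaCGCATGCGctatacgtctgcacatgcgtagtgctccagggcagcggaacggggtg
Ndufc1: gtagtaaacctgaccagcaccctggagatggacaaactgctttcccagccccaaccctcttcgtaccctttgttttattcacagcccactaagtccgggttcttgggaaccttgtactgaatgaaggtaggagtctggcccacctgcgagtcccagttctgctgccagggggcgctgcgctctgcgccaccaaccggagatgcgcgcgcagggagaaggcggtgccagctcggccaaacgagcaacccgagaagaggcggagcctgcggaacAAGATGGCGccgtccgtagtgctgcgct
Atp5g3: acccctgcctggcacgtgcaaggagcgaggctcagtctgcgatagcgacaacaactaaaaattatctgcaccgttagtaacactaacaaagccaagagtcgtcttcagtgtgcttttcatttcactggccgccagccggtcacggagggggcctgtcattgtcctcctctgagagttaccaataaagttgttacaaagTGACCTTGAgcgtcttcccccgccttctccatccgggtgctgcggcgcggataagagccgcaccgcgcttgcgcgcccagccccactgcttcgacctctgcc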

How the data were processed

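Illumina bead arrays measured double-amplified RNA of 10 sorted samples. Per the file headers, the authors deposited for each array a signal intensity and a detection p-value per probe, and a table of normalized intensity values; BeadStudio is named per the submitters' processing notes, and its version and the normalization method are not given in the sources used here. Deposited intensities were background-corrected by normexp with the detection p-values (offset 16), quantile normalized and put on the log2 scale in limma 3.58.1 (R 4.3.3). Probes with a detection p-value under 0.01 on at least 2 arrays were kept, with 1 probe a gene, that of the highest mean. The platform table gives a single symbol to 23978 of the 25697 probes, more than 1 symbol to 0, and leaves 1719 unnamed; all 79 members matched RefSeq. One additive fit of origin and gate over all 10 arrays gave every difference, two-sided, with 6 residual degrees of freedom and Benjamini-Hochberg adjustment over 9679 features. The number of arrays limits the precision, and depth has no counterpart here.

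The members and lists were chosen with earlier results of these data known. Named by rule were members called, the 2 largest and 2 smallest differences of complexes I, III, IV and V, complex II, the complex I core, the tissue isoforms of complex IV and a few central subunits, and in each other list up to 2 genes with the largest difference. Other members named, and Nrf1, Gabpa and Esrra, were chosen after their values were seen. Correlations of same-numbered deviations lay between -0.09 and 0.20. Between the gates of an origin they were -0.09 (embryonic) and 0.10 (ES-derived). With so few arrays a group they cannot show whether same-numbered samples were paired, and the reported fit used no replicate block. Alternatives were median scaling, no background correction, the authors' normalized values, other detection filters, the mean of probes, array weights, a replicate block and leaving out arrays.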

Additional observations from a re-analysis of the deposited data

Results flagged for a closer look

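In 4 of the 92 groups of 4 arrays looked at (46 genes in 2 origins), 1 array lay far from the other 3, where chance gives about 5% of groups. Cox4i1, a widely expressed subunit of complex IV, was at 11.07 on ES-derived GFP-high 2, with the other ES-derived arrays at 11.86 to 11.99. Ndufb10 of complex I was at 5.43 and not detected on ES-derived GFP-high 1, with the others at 7.78 to 8.26. Sdhc, a membrane anchor of complex II, was at 8.81 on the same array, with the others at 11.38 to 11.79. Uqcrc2, a core protein of complex III, was at 10.84 on embryonic GFP-high 2, with the others at 9.98 to 10.06. ES-derived GFP-high 1, which holds 2 of the 4, had a mean intensity of 3.16, and the part of its brightness in these values was not tested.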

How the results depend on the processing

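For induced against embryonic cells, 1 member was called in the reported fit. The count was 0 with median scaling (0.0517% of all features called), 0 without background correction (1.11%) and 0 with the authors' normalized values (1.33%). It was 2 without a filter (Ndufb5 and Uqcr11, 0.890% of all features) and 2 with the replicate block (Atp5l and Ndufb4, 1.21%). With array weights 46 were called (32.4% of all features), and without the 3 dimmest arrays 30 (16.7% of all features). For induced against ES-derived cells, 0 were called in the reported fit, 28 with array weights (16.3% of all features) and 14 without the 3 dimmest arrays (11.2%). For ES-derived against embryonic cells, 0 were called in the reported fit, 2 with array weights (Atp5l and Uqcr10, where 5.68% of all features were called) and 1 without the 3 dimmest arrays (4.12%). With median scaling the member median was -0.81 for ES-derived against embryonic cells, where the median of all features moved to -0.58. For induced against embryonic cells these medians were 0.93 and -0.44, and for induced against ES-derived cells 1.66 and 0.03. Leaving out 1 array at a time gave 0 to 15 calls and medians of 0.92 to 1.36 for induced against embryonic cells, 0 to 3 calls and 0.73 to 1.04 for induced against ES-derived cells, 0 to 1 calls and 0.13 to 0.35 for ES-derived against embryonic cells, and 0 to 0 calls and -0.15 to 0.09 for the gates. The cause was not tested. Of 2541 alternative values of named members, 0 reversed a called direction, 2340 kept their call or, uncalled, moved by less than their standard error, 128 uncalled ones moved by more, 62 newly passed the threshold and 11, all of Atp5l, no longer passed. Low transcripts on the dimmest array could not be measured.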
